A study of Mus musculus with 6 samples.

Results

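The genes that encode the proteasome were examined in RNA-seq of mouse quadriceps after muscle-specific loss of Drp1, the GTPase that divides mitochondria and is encoded by *Dnm1l*. Members were taken by name, as every gene whose symbol begins with Psma, Psmb, Psmc, Psmd or Psme followed by a digit, and 44 of the 27179 listed genes met this rule. One of them, *Psmc3ip*, encodes a meiotic recombination protein and no part of the proteasome, which leaves 43 subunit genes: 19 of the 20S core, 20 of the 19S particle and 4 activators. Of these, 41 had enough counts to be tested.

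The 20S core is a barrel of stacked rings that degrades proteins. Its outer rings are made of α subunits (Psma genes) that gate the entrance, and its inner rings of β subunits (Psmb genes), of which Psmb5, Psmb6 and Psmb7 carry the proteolytic sites. The 19S particle caps the barrel, with a base of ATPases (Psmc genes) and scaffold subunits that unfold and thread the substrate and a lid that removes its ubiquitin chain. Activators (Psme genes) can take the place of the 19S particle. In skeletal muscle the ubiquitin-proteasome system is best known for breaking down contractile proteins during atrophy.

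The comparison was between 3 control libraries (replicates B, C and D) and 3 miDrp1KO libraries (replicates A, E and F), all taken to be from male mice on normal chow. The study's methods name male mice, and both normal chow and a high-fat diet, without stating the diet of the mice sequenced. miDrp1KO mice carry floxed *Dnm1l* alleles (C57BL/6J background) and HSA-MerCreMer, a tamoxifen-inducible Cre driven by the human skeletal actin promoter. Controls are labelled f/f, and the methods also allow a heterozygous floxed genotype for them. Both groups received tamoxifen for 4 days at 3 months of age. Muscle was collected after a fast, 3 weeks after deletion, a time that the labels do not give. Cre of this line acts in muscle fibres, so the blood vessels, connective tissue, fat and immune cells in a quadriceps keep *Dnm1l*.

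Libraries held 13989588 to 62042255 counts, with control C the shallowest and control D the deepest. *Dnm1l* (Entrez 74006) was at 156, 114 and 140 CPM (reads of a gene per 1e+06 of the normalised library) in control libraries B, C and D and at 70.6, 81.3 and 66.2 CPM in miDrp1KO libraries A, E and F, with no overlap between the groups (log2 fold change -0.91, SE 0.182, adjusted p = 0.362). Over the 16 alternative fits its adjusted p ran from 0.00333 (DESeq2) to 0.877, with an unadjusted p under 0.05 in all 16. Ribosomal RNA genes took 3.36 to 15.6% of the counts in controls and 1.47 to 24.4% in miDrp1KO. The summed level of 8 fibre genes was 123300 to 141800 CPM in controls and 60660 to 108900 CPM in miDrp1KO, again with no overlap. *Myh4*, the fast myosin of type IIB fibres, carried most of this (mean 57020 against 23260 CPM). *Acta1*, *Tnnt3* and *Casq1* did not overlap between the groups either, whereas *Ckm*, *Des*, *Mylpf* and *Mb* did, and *Mb* had a positive log2 fold change of 0.67. Slow fibre genes summed to 52.8 to 441.5 CPM in controls and 81.2 to 723 CPM in miDrp1KO, and were high in control B and in miDrp1KO E and F. Because the tissue is a mixture, fewer fibres and less of a transcript per fibre cannot be told apart.

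The parts of the proteasome differed in where their fold changes lay. All 8 members at an unadjusted p under 0.05 were lower in miDrp1KO, and they belonged to the 19S particle (7 genes) and the activators (*Psme4*). No tested 20S core gene reached this threshold. The strongest single difference was in *Psmd2*, the large scaffold of the 19S base, at a log2 fold change of -0.68.

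None of these differences passed the adjustment over all genes. By edgeR (quasi-likelihood test, Benjamini-Hochberg), 0 of the 42 tested members had an adjusted p under 0.05 (lowest 0.362), where 2 of 16483 genes did (0.0121%). DESeq2 called 1 member, *Psmd2*, among 82 calls in the 6962 genes to which it gave an adjusted p. At an unadjusted p under 0.05, 8 members were lower and 0 higher, beside 6.22% of all tested genes that were lower and 4.68% that were higher. In 11 tested members every miDrp1KO library lay below every control library and in 0 above, beside 10.3% and 7.67% of all tested genes. The count of 8 rests on single libraries: without control D it was 1 (*Psmd2*), beside 2.15% of all genes, and without miDrp1KO E it was 2 (*Psmd2* and *Psme4*), beside 3.91%. Those counts are near the shares over all genes in the same fits.

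By part, 16 of 20 tested 19S genes had a negative log2 fold change (median -0.25), against 3 of 17 core genes (median 0.10) and 3 of 4 activators (median -0.19). The median over all tested genes was 0.02. Over the 16 alternative fits 14 to 16 of the 19S genes were negative and 2 to 9 of the core genes, the 9 after correction for length and GC content, where the core median was -0.02. Leaving out 1 replicate gave core medians from 0.06 to 0.18 and 19S medians from -0.33 to -0.15. Within the 19S particle the base stood lowest, with 8 of 9 genes negative and a median of -0.43. The lid had 6 of 8 negative and a median of -0.19. *Psmd5*, *Psmd9* and *Psmd10*, chaperones that help the base assemble and leave the finished particle, ran from -0.04 to 0.12. No test was made of the difference between parts, whose members are measured in the same libraries.

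**Figure D1:**
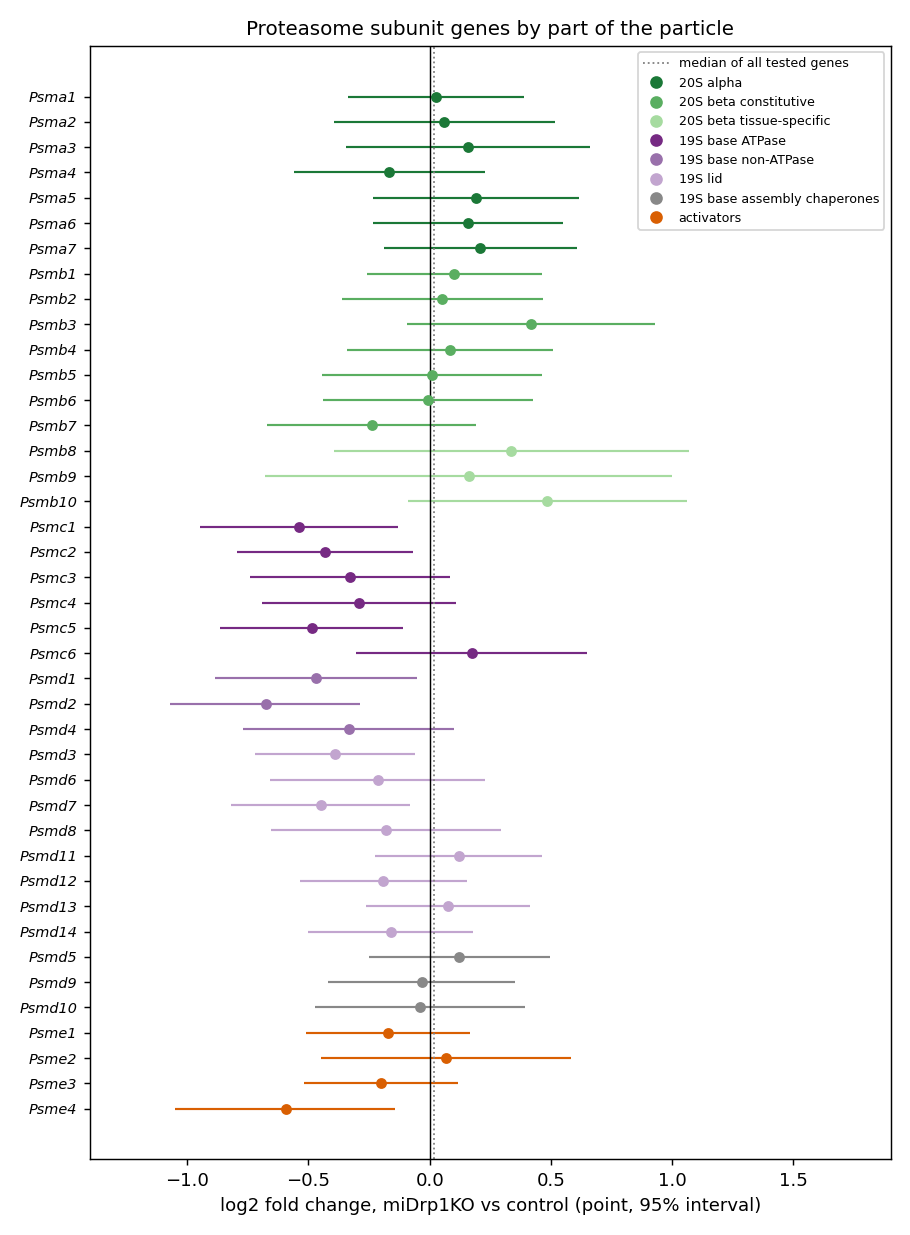
Log2 fold change of each of the 41 tested subunit genes in miDrp1KO against control (horizontal axis; point, edgeR estimate; bar, 95% interval), coloured by part of the proteasome, with the median of all tested genes dotted. The intervals of the 8 genes that exclude 0 all lie on the negative side and belong to the 19S particle or to *Psme4*, whereas every 20S interval includes 0.

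The 19S base holds the ring of 6 ATPases that pull the substrate into the core. *Psmc1* (Rpt2; chr12:100110202-100123364 on GRCm38) was at 149.7, 156.5 and 152.5 CPM in control B, C and D and at 128, 88.0 and 99.6 CPM in miDrp1KO A, E and F. The controls lay close together and all miDrp1KO libraries lay below them, with E the lowest. The group means were 153 ± 3.45 and 105 ± 20.7 CPM (SD over 3 libraries), and the log2 fold change was -0.54 (SE 0.186, 95% interval -0.95 to -0.13, unadjusted p = 0.0143, adjusted p = 0.392).

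*Psmc5* (Rpt6; chr11:106256185-106263112) was at 77.7, 76.3 and 84.5 CPM in control B, C and D and at 66.5, 47.8 and 56.0 CPM in miDrp1KO A, E and F (log2 fold change -0.49, SE 0.171, unadjusted p = 0.0161, adjusted p = 0.392). *Psmc2* (Rpt1; chr5:21785275-21803787) was at 67.9, 76.6 and 70.4 CPM in controls and at 62.0, 47.8 and 49.6 CPM in miDrp1KO (-0.43, SE 0.166, unadjusted p = 0.0243, adjusted p = 0.407). In both genes the groups did not overlap, and miDrp1KO A lay closest to the controls while E was lowest.

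*Psmc3* (Rpt5) was at 161, 191.5 and 164 CPM in controls and at 151.5, 112 and 149 CPM in miDrp1KO, without overlap but at an unadjusted p of 0.109 (log2 fold change -0.33, SE 0.188). *Psmc4* (Rpt3) overlapped through miDrp1KO F, with 58.6, 58.7 and 63.55 CPM against 47.7, 39.4 and 60.7 CPM (-0.29, SE 0.182). The remaining ATPase went the other way: *Psmc6* (Rpt4) was at 132, 221 and 159 CPM in controls and at 215, 191 and 173 CPM in miDrp1KO (0.17, SE 0.217, unadjusted p = 0.440). It had the widest spread between controls of the 6 ATPases, with an SD of 45.7 CPM.

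The base is completed by the scaffolds *Psmd1* and *Psmd2* and the ubiquitin receptor *Psmd4*. *Psmd2* (Rpn1; chr16:20651122-20663414), the docking site for ubiquitin shuttles, was at 183, 193 and 198 CPM in control B, C and D and at 139, 106 and 114 CPM in miDrp1KO A, E and F. The highest miDrp1KO library was thus well below the lowest control. The group means were 191 ± 7.81 and 120 ± 17.1 CPM, and the log2 fold change was -0.68 (SE 0.178, 95% interval -1.07 to -0.29, unadjusted p = 0.00283, adjusted p = 0.362). In 16 alternative fits its log2 fold change stayed between -0.77 and -0.59, with an unadjusted p under 0.05 in all 16 and an adjusted p from 0.0381 (DESeq2) to 0.877 (without control D).

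*Psmd1* (Rpn2; chr1:86064619-86139295) was at 192, 216 and 225 CPM in controls and at 181, 129 and 147 CPM in miDrp1KO (log2 fold change -0.47, SE 0.189, unadjusted p = 0.0309, adjusted p = 0.417). Its groups did not overlap, although miDrp1KO A came close to control B. *Htr2b* lies within the bounds of *Psmd1*, with 18686 bp shared. *Psmd4* (Rpn10) overlapped between the groups and had a log2 fold change of -0.33 (SE 0.198, unadjusted p = 0.120).

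The lid removes ubiquitin chains through *Psmd14* (Rpn11), which pairs with *Psmd7* (Rpn8). *Psmd7* (chr8:107580380-107588482) was at 94.3, 98.2 and 97.3 CPM in controls and at 82.8, 63.7 and 65.7 CPM in miDrp1KO, with no overlap (log2 fold change -0.45, SE 0.168, unadjusted p = 0.0210, adjusted p = 0.393). *Psmd14* itself was at 54.9, 64.8 and 57.5 CPM in controls and at 56.1, 49.4 and 52.9 CPM in miDrp1KO, and its groups overlapped (-0.16, SE 0.154, unadjusted p = 0.319).

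*Psmd3* (Rpn3; chr11:98682554-98695978), a structural lid subunit, was at 52.7, 46.3 and 54.1 CPM in controls and at 38.45, 37.3 and 41.2 CPM in miDrp1KO (log2 fold change -0.39, SE 0.150, unadjusted p = 0.0247, adjusted p = 0.407). Here the miDrp1KO libraries lay close together and control C was the nearest control. *Psmd12* (Rpn5) was lower in every miDrp1KO library as well, at 93.6, 98.2 and 101.1 CPM against 86.8, 79.35 and 90.3 CPM, by a smaller step (-0.19, SE 0.157, unadjusted p = 0.246). Of the other lid genes, *Psmd6*, *Psmd8* and *Psmd14* had negative log2 fold changes from -0.21 to -0.16 and *Psmd11* and *Psmd13* positive ones of 0.12 and 0.08, and none of them had an unadjusted p under 0.05.

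**Figure D2:**
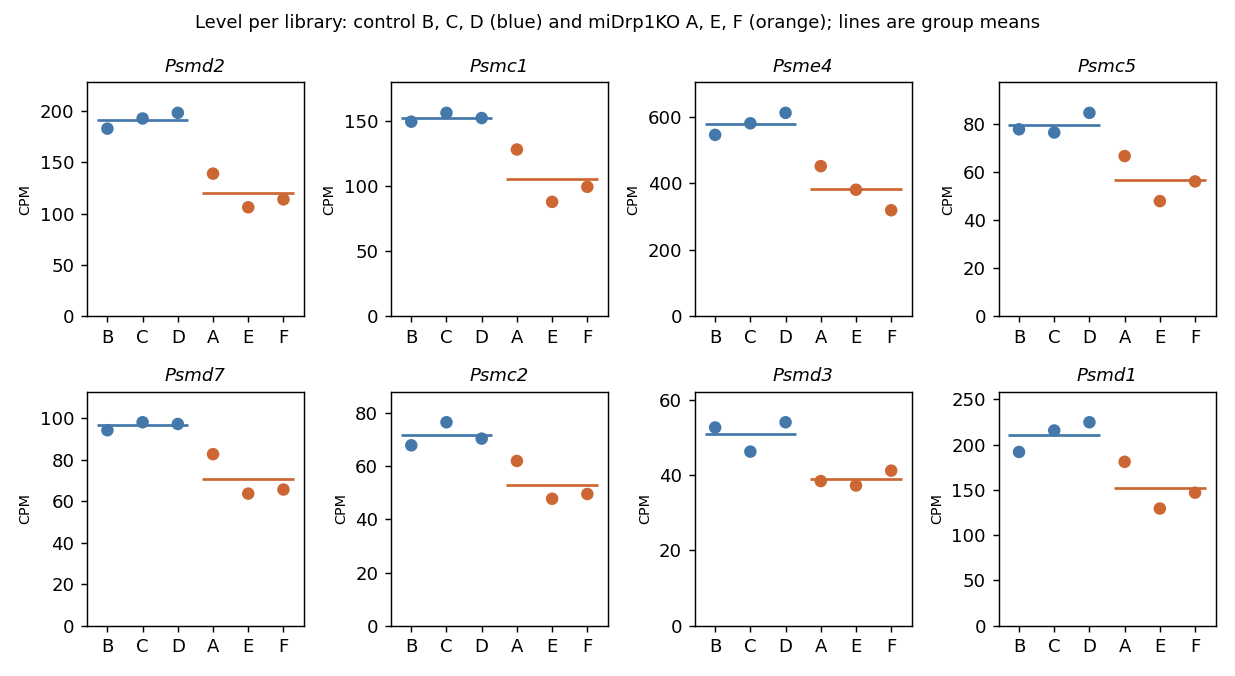
CPM (vertical axes, starting at 0) of the 8 members with an unadjusted p under 0.05, 1 point per library, with lines at the group means. In each panel the 3 miDrp1KO points (A, E, F) lie below the 3 control points (B, C, D), and A is the highest of the miDrp1KO libraries in all panels but that of *Psmd3*.

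Among the activators, *Psme4* encodes PA200, which binds the core in the nucleus and promotes degradation of acetylated histones. *Psme4* (chr11:30771775-30881150) was at 546, 581 and 613 CPM in control B, C and D and at 452, 381 and 319 CPM in miDrp1KO A, E and F. All miDrp1KO libraries lay below all controls. The group means were 580 ± 33.2 and 384 ± 66.5 CPM, and the log2 fold change was -0.59 (SE 0.206, 95% interval -1.05 to -0.14, unadjusted p = 0.0147, adjusted p = 0.392). Its bounds share 18357 bp with *Erlec1*.

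The PA28 activators form rings that open the core without ATP. *Psme3* (PA28γ, nuclear) was at 40.7, 40.2 and 45.2 CPM in controls and at 37.7, 35.1 and 36.9 CPM in miDrp1KO, without overlap (log2 fold change -0.20, SE 0.145, unadjusted p = 0.193). *Psme1* (PA28α, interferon-inducible) was at 41.5, 36.2 and 33.0 CPM and at 32.5, 31.0 and 34.8 CPM, with overlap (-0.17, SE 0.154). Its partner *Psme2* (PA28β) was lower per kb of exon (2.51 against 16.7 CPM per kb in controls), at 4.69, 4.59 and 3.998 CPM in controls and at 4.715, 3.55 and 5.66 CPM in miDrp1KO (0.07, SE 0.235). *Psme2b*, a copy of *Psme2*, is not among the listed genes. How reads shared by such copies were counted is not given, so the level of *Psme2* is uncertain.

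The groups overlapped in all 17 tested genes of the 20S core. Of the 7 tested α genes, 6 had a positive log2 fold change (median 0.16) and *Psma4* a negative one of -0.17. With the length and GC correction 4 of the 7 were negative, and in the other alternative fits 1 to 3. *Psma7* had the lowest unadjusted p of the α genes (0.273), at 42.3, 60.7 and 49.7 CPM in controls and at 59.9, 51.3 and 65.2 CPM in miDrp1KO (0.21, SE 0.181). Of the 7 constitutive β genes, 5 were positive and 2 negative (median 0.05). *Psmb3*, a structural β subunit, was at 22.4, 29.7 and 27.1 CPM in controls and at 24.45, 33.7 and 47.65 CPM in miDrp1KO (0.42, SE 0.231, unadjusted p = 0.0984, adjusted p = 0.541), and the value of miDrp1KO F stood above the rest. Without that library its log2 fold change was 0.16, and without miDrp1KO A it was 0.65 (unadjusted p = 0.00906, adjusted p = 0.156).

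The groups overlapped in each constitutive catalytic subunit. *Psmb5* (chymotrypsin-like site) was at 14.35, 17.1 and 13.6 CPM in controls and at 13.85, 11.9 and 19.7 CPM in miDrp1KO (log2 fold change 0.01, 95% interval -0.45 to 0.47). *Psmb6* (caspase-like site) was at 114, 145.5 and 126 CPM and at 124, 104 and 156 CPM (-0.01, 95% interval -0.44 to 0.43). The signs of both turned in some of the alternative fits, *Psmb5* keeping its sign in 10 of 16 and *Psmb6* in 6 of 16. *Psmb7* (trypsin-like site) had the most negative value of the core, at 143, 206 and 167 CPM in controls and at 166, 130 and 141 CPM in miDrp1KO (-0.24, 95% interval -0.67 to 0.19), and its groups overlapped. These intervals include differences as large as the median of the 19S base.

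Immune cells and interferon-treated cells replace the 3 catalytic subunits with *Psmb8*, *Psmb9* and *Psmb10*, which form the immunoproteasome. All lay below the constitutive core genes per kb of exon, and each overlapped between the groups. *Psmb8* was at 1.85, 4.74 and 2.73 CPM in controls and at 3.597, 3.26 and 4.70 CPM in miDrp1KO (log2 fold change 0.34, SE 0.332). *Psmb9* was at 1.04, 2.33 and 1.08 CPM and at 1.51, 1.69 and 1.58 CPM (0.16, SE 0.383). Both depend on single libraries: *Psmb8* ran from 0.10 (without control B) to 0.70 (without control C, where its unadjusted p was 0.0416), and *Psmb9* was at -0.01 without control B and -0.03 without control D.

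Among the tested core genes, *Psmb10* had the most positive fold change and the lowest unadjusted p. It was at 5.635, 4.30 and 3.91 CPM in controls and at 4.28, 7.26 and 7.73 CPM in miDrp1KO (0.48, SE 0.262, 95% interval -0.09 to 1.06, unadjusted p = 0.0910, adjusted p = 0.529). Libraries E and F were above all controls and A was within their range. Its log2 fold change ran from 0.20 (slow fibre score in the model) to 0.73 (without miDrp1KO A), with an unadjusted p under 0.05 without control B and without miDrp1KO A. Summed macrophage and leukocyte markers were at 148.7 to 274 CPM in controls and 243.7 to 258.7 CPM in miDrp1KO. Of those 11 genes, 5 were higher at an unadjusted p under 0.05, beside 4.68% of all tested genes. By edgeR 0 of them passed the adjustment (lowest adjusted p 0.379). *Adgre1* and *Mrc1* had negative log2 fold changes (-0.05 and -0.01). Lymphocyte markers summed to 2.19 to 4.36 CPM in controls and 3.35 to 4.37 CPM in miDrp1KO, with *Cd3g* at 0 in control C. Their part in the immunoproteasome levels was not tested.

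Within each library, the ratio of an immunoproteasome subunit to the one it replaces was taken from levels per kb of exon. *Psmb8* stood at 3.42, 7.35 and 5.33% of *Psmb5* in control B, C and D and at 6.90, 7.31 and 6.36% in miDrp1KO A, E and F. *Psmb9* stood at 0.467, 0.820 and 0.440% of *Psmb6* in controls and at 0.623, 0.829 and 0.520% in miDrp1KO. *Psmb10* stood at 7.91, 4.20 and 4.70% of *Psmb7* in controls and at 5.18, 11.2 and 11% in miDrp1KO. By exon union, the RNA of the constitutive subunit was therefore the higher one in all 6 libraries for each pair. The percentages depend on the length used. The exon union of *Psmb8* has 3381 bp and its longest transcript 1907 bp, against 899 bp by both for *Psmb5*. Protein was not measured here. The differences of the mean log2 ratio (miDrp1KO minus control) were 0.42, 0.22 and 0.68, with 2-sided exact permutation p of 0.4, 0.5 and 0.2 (0.5 for each after adjustment over the 3 pairs). Each difference stayed positive but moved widely when 1 replicate was left out, with the ranges given in the closing section. The smallest p that 3 against 3 libraries allow is 0.1.

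**Figure D3:**
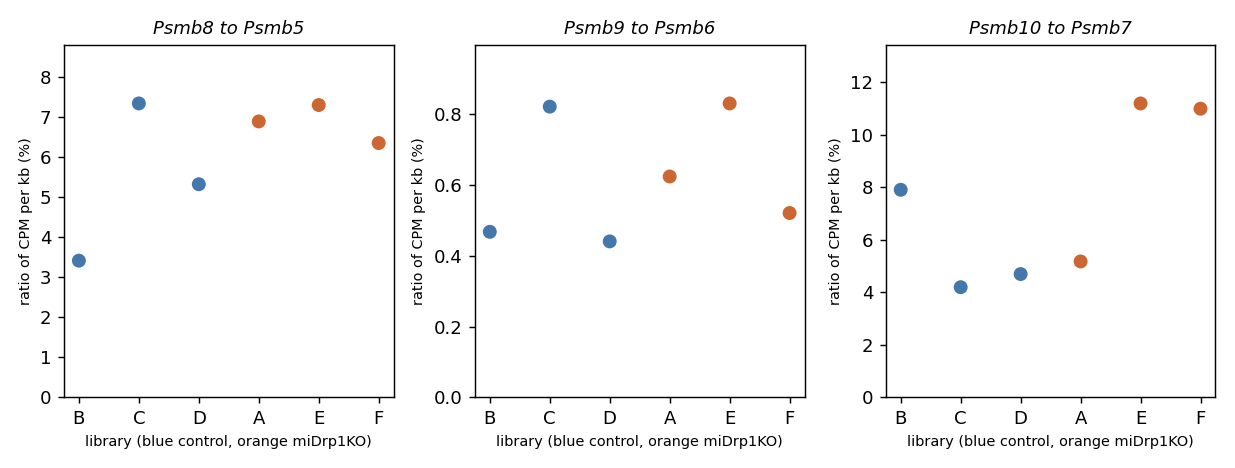
Level per kb of each immunoproteasome subunit as a percentage of the constitutive subunit it replaces (vertical axes), 1 point per library (blue, control; orange, miDrp1KO). By exon union, ratios stay below 12% in every panel, the groups overlap in each, and miDrp1KO E and F are the highest for *Psmb10* to *Psmb7*.

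Tissue-specific core subunits were close to the detection limit. *Psma8*, the testis form of *Psma7*, had 3, 1 and 9 counts in control B, C and D and 5, 21 and 6 in miDrp1KO A, E and F. *Psmb11*, the thymoproteasome subunit, had 3, 1 and 10 counts in controls and 8, 14 and 22 in miDrp1KO. Both fell below the filter on low counts. In CPM, all miDrp1KO libraries lay above all controls in both. The values were 0.243 to 0.515 against 0.0729 to 0.150 for *Psma8* and 0.343 to 1.06 against 0.0729 to 0.167 for *Psmb11*. *Psmb11* was higher at an unadjusted p under 0.05 with no filter and with DESeq2. Where it entered a fit without 1 replicate, it passed the filter only through its miDrp1KO libraries. Its p in those fits therefore shows nothing further and is not used. *Psmc3ip* was at 1.85, 1.09 and 1.199 CPM in controls and at 1.31, 1.32 and 2.11 CPM in miDrp1KO (log2 fold change 0.19, SE 0.365).

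Levels of different genes were compared per kb of exon. By the union of exons, *Psmc1* had the highest level in controls, at 79.1 ± 1.79 CPM per kb. It was followed by *Psme4* (69.2 ± 3.96), *Psmb6* (68.6 ± 8.49) and *Psmc3* (66.1 ± 6.45). This order depends on the length used. The longest transcript of *Psmb6* has 966 bp and its exon union 1872 bp, against 1591 and 1933 bp for *Psmc1*. By the longest transcript *Psmb6* would stand above *Psmc1*. In the order by exon union, *Psmc1* came first. *Psme4*, *Psmb6* and *Psmc3* did not differ beyond their spread. Constitutive core genes ran down to 8.91 ± 0.888 CPM per kb for *Psma5*. The immunoproteasome genes *Psmb10*, *Psmb8* and *Psmb9* followed at 2.71 ± 0.529, 0.918 ± 0.438 and 0.406 ± 0.200 CPM per kb. The base chaperones *Psmd5* and *Psmd9* were the least abundant 19S genes, at 1.94 ± 0.141 and 1.21 ± 0.0469 CPM per kb.

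**Figure D4:**
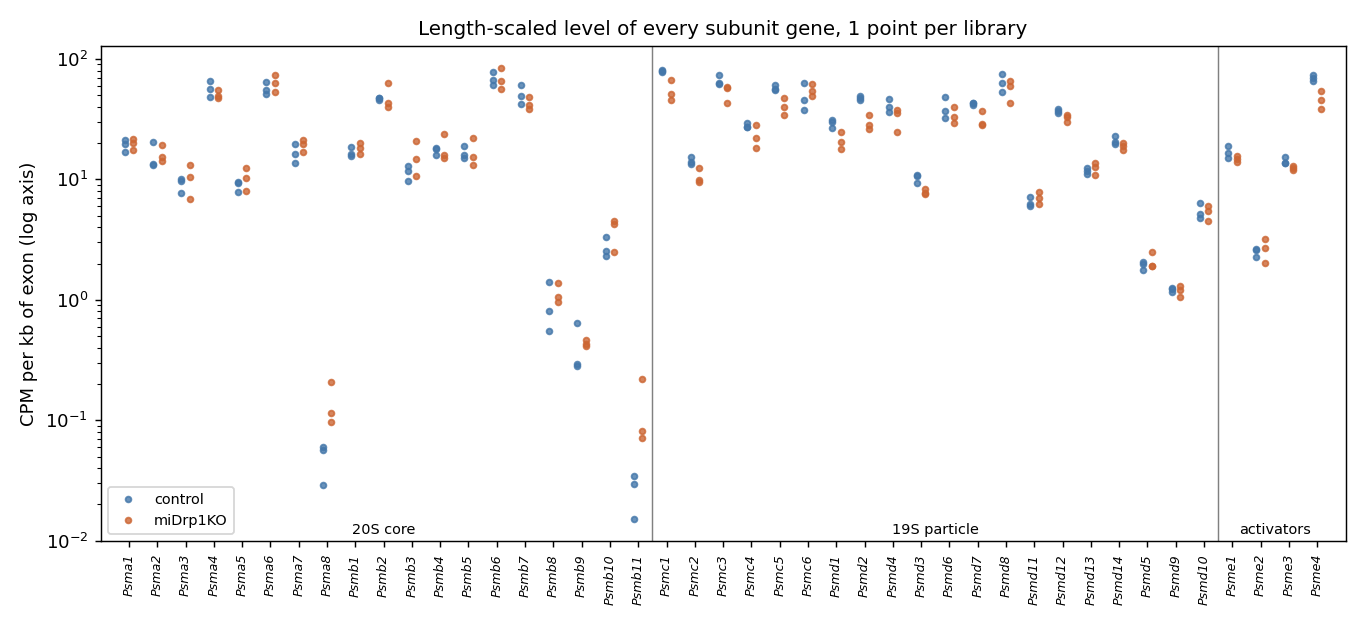
CPM per kb of exon (vertical log axis) of all 43 subunit genes, 1 point per library (blue, control; orange, miDrp1KO), arranged by part. Control means of the constitutive core genes run from 8.91 to 68.6 CPM per kb, and *Psma8* and *Psmb11* lie below 0.1 CPM per kb in all controls.

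Summing levels per kb shows how the parts stood relative to each other in 1 library. The 20S core genes summed to 380.8, 463 and 400.5 CPM per kb in control B, C and D and to 410.1, 377 and 481 in miDrp1KO A, E and F, with full overlap. The 19S base genes summed to 381, 438.5 and 412 in controls and to 365, 274 and 319.7 in miDrp1KO. The lid genes summed to 208.9, 255.8 and 231.3 in controls and to 216.4, 173.5 and 208.8 in miDrp1KO, with overlap. The ratio of base to core was 1.001, 0.947 and 1.03 in controls and 0.889, 0.727 and 0.665 in miDrp1KO, so that the groups did not overlap and miDrp1KO A lay nearest to the controls. Scaling of a library does not enter this ratio. For base and lid together the ratio to the core was 1.549, 1.499 and 1.606 in controls and 1.417, 1.187 and 1.099 in miDrp1KO. The base is the 19S part with the lowest median, so its ratio to the core restates those fold changes. Both ratios are given as a description, with no test.

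**Figure D5:**
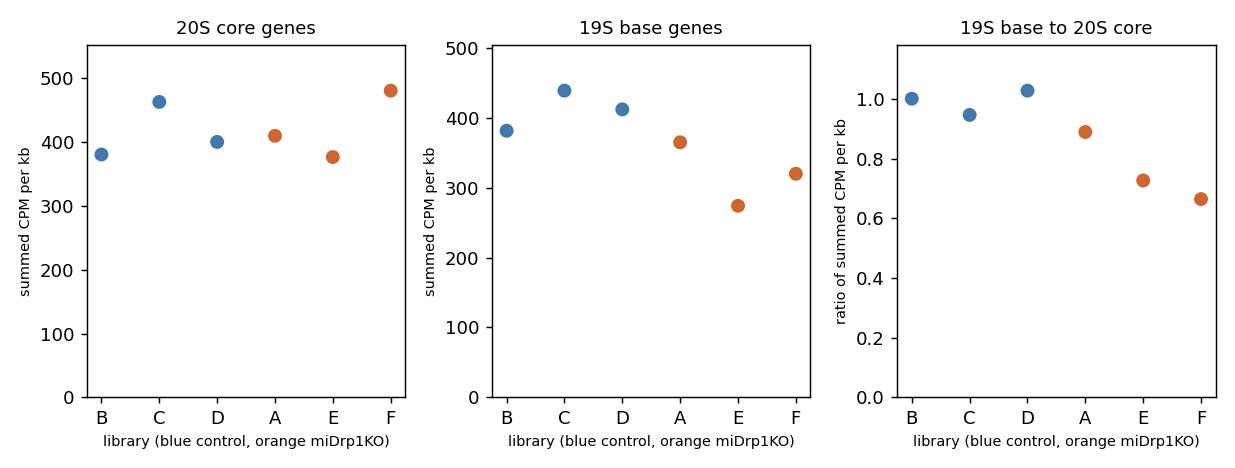
Summed CPM per kb of the 20S core genes and of the 19S base genes, and the ratio of the sums (vertical axes, starting at 0), 1 point per library (blue, control B, C, D; orange, miDrp1KO A, E, F). Core sums overlap between the groups, whereas the ratio is at least 0.947 in controls and at most 0.889 in miDrp1KO. The lid, whose sums also overlap, is not drawn.

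Values that moved with the 19S genes were recorded beside them. Among the miDrp1KO libraries the fibre gene sum was lowest in E and highest in A, the order also found in 6 of the 8 lower members. Of the other 2, *Psmd3* was highest in F and *Psme4* lowest in F. The adipocyte marker sum was 300.6 to 421 CPM in controls and 226 to 275 CPM in miDrp1KO, without overlap. The part of either in the 19S result was not tested. miDrp1KO E also stood apart in its library scaling factor (TMM), at 1.42 against 0.84 to 1.04 in the other libraries. Its ribosomal RNA share was 1.47%, against 23 and 24.4% in miDrp1KO A and F. With ribosomal RNA share in the model, 7 members were lower at an unadjusted p under 0.05, beside 4.58% of all genes. Gene length was also related to the fold change over all genes (Spearman rho -0.12 over 14833 genes, -0.11 over the 41 subunit genes), and median exon length was 2370 bp for core and 2938.5 bp for 19S genes. After correction for length and GC content the 8 members lower at an unadjusted p under 0.05 were the same 8, beside 9.27% of all genes tested in that fit. The same correction took the 19S median from -0.25 to -0.33.

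Promoter sequences were looked at because the lower members belonged largely to 1 part. Windows of 250 bases before the start site (RefSeq, GRCm38.p6) were matched for 36 of the 43 subunit genes, and 3 motifs were searched on both strands, chosen after the results were known. CCGGAAG, the letters of an ETS-type site, was found in 8 of 17 windows of 19S genes, 2 of 4 of activators and 1 of 15 of core genes, beside 7.83% of 27025 gene windows. The 19S windows with these letters include those of *Psmc6* and *Psmd11*, whose log2 fold changes were positive (0.17 and 0.12). With the length and GC correction they were 0.002 and 0.005. TGACNNNGC, the core of the antioxidant response element to which Nfe2l1 and Nfe2l2 bind, was found in 3 of 17 19S, 0 of 4 activator and 2 of 15 core windows, beside 11.5% of all genes. CCAAT was found in 5 of 17, 1 of 4 and 8 of 15, beside 37.5%. A match is a description of letters and no binding was measured.

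The windows of the 3 lower members with the lowest unadjusted p that hold the ETS-type letters are printed below. That of *Psmb5* is added as a core gene with the letters TGACNNNGC. All are printed 5′ to 3′ on the gene's strand with the matched letters in capitals. CTTCCGG is CCGGAAG read on the other strand.
Psmd2, chr16:20651402-20651651, plus strand: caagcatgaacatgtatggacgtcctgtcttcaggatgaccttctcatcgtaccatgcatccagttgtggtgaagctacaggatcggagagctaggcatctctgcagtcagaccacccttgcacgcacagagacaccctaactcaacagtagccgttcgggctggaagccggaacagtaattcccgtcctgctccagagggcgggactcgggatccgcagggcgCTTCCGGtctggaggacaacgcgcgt
Psmc1, chr12:100109952-100110201, plus strand: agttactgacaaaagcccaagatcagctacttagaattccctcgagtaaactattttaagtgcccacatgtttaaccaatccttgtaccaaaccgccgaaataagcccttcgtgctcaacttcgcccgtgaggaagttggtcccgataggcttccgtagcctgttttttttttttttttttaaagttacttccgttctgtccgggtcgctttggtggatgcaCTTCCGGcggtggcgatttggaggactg
Psme4, chr11:30771525-30771774, plus strand: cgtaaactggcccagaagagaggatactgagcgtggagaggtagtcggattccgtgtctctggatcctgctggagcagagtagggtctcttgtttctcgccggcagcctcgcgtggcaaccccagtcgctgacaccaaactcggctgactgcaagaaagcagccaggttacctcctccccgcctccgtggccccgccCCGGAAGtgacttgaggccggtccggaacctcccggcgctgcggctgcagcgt
Psmb5, chr14:54617996-54618245, minus strand: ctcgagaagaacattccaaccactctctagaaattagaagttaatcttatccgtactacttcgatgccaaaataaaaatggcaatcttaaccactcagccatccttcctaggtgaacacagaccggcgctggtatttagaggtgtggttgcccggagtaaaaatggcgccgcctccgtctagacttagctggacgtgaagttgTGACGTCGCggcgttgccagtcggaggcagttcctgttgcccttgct

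The match lay 26 bases before the start site in *Psmd2*, 28 in *Psmc1* and 53 in *Psme4*, and 47 in *Psmb5*. The bases just after the window were found in a GENCODE transcript of *Psmd2*, *Psme4* and *Psmb5* but not of *Psmc1*. The start site of *Psmc1*, and so its distance, is therefore uncertain. The window of *Psmd2* lies inside the annotated bounds of the gene. *Psmc5* and *Psmd1*, lower at an unadjusted p under 0.05 as well, hold none of the 3 motifs in their windows.

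The wider pathway was followed in 47 further genes. At an unadjusted p under 0.05, 4 were lower and 1 higher, and 0 passed the adjustment (median log2 fold change -0.20). These counts are near the shares over all tested genes (6.22% lower, 4.68% higher). They also depend on single libraries, since the total of 5 was 1 without miDrp1KO E, 2 without control B, control D or miDrp1KO F, 11 without miDrp1KO A and 8 with DESeq2. Every miDrp1KO library lay below every control in 13 of the 47 genes and above in 2, beside 10.3% and 7.67% of all tested genes, and 33 of the 47 had a negative log2 fold change. *Ubqln4*, a shuttle that carries ubiquitylated proteins to the proteasome, was at 70.6, 72.3 and 73.1 CPM in controls and at 53.95, 45.1 and 39.0 CPM in miDrp1KO, without overlap (-0.65, SE 0.167, unadjusted p = 0.00259, adjusted p = 0.362). Also lower were *Uchl5*, a deubiquitinase bound to the 19S particle (-0.44, unadjusted p = 0.0282), *Ube3c*, a proteasome-bound ubiquitin ligase (-0.42, unadjusted p = 0.0311), and *Calr*, a chaperone of the endoplasmic reticulum (-0.41, unadjusted p = 0.0449). Their miDrp1KO libraries all lay below the controls.

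The exception was *Psmg4*, a chaperone of 20S assembly, at 0.852, 1.09 and 1.62 CPM in controls and at 1.85, 2.16 and 2.735 CPM in miDrp1KO (0.87, SE 0.345, unadjusted p = 0.0274, adjusted p = 0.414). *Pomp*, the maturation factor of the core, was at 68.7, 71.3 and 72.5 CPM in controls and at 64.1, 53.85 and 67.8 CPM in miDrp1KO (-0.20, SE 0.159, unadjusted p = 0.246). *AI314180* (*Ecpas*), which holds core and 19S particle together, was at 695, 636.5 and 756 CPM and at 627, 481 and 353 CPM, without overlap (-0.51, SE 0.241, unadjusted p = 0.0554).

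The 19S subunits outside the naming rule did not separate the groups. The ubiquitin receptor *Adrm1* (Rpn13) was at 19.3, 9.47 and 20.4 CPM in controls and at 8.60, 15.25 and 18.3 CPM in miDrp1KO (-0.23, SE 0.356). *Sem1* (Rpn15), a small lid subunit, was at 159.6, 192 and 179.9 CPM and at 204.9, 206 and 176 CPM (0.14, SE 0.176). *Nfe2l1*, the factor that raises proteasome gene transcription when the proteasome is impaired, was at 687, 505 and 564.5 CPM in controls and at 509, 438 and 373.5 CPM in miDrp1KO, overlapping by 1 library (-0.41, SE 0.216, unadjusted p = 0.0822, adjusted p = 0.521).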

How the data were processed

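RNA-seq counts of 6 quadriceps libraries were analysed, grouped by the genotype in their labels. The authors deposited raw counts per gene, without normalization, for 27179 genes. Per the study's methods, stranded libraries of ribosomal RNA-depleted total RNA were sequenced in pools. After FastQC, alignment was to GRCm38, with counting by Rsubread. The strand setting and the treatment of multi-mapping reads are not given in the sources used here, so genes that overlap others or have near-identical copies are uncertain. Which library was in which pool is not given in the sources used here. Libraries were taken as separate mice, and p-values measure only the spread between them.

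The main test was the robust quasi-likelihood test of edgeR 4.0.16 (R 4.3.3) after TMM and filterByExpr. P-values of the 16483 genes left were adjusted together (Benjamini-Hochberg, threshold 0.05). SE was the absolute log2 fold change divided by the square root of F, and intervals are 95%. CPM used TMM library sizes. Levels per kb used the union of exons of GENCODE M21 (GRCm38), which includes exons of minor transcripts, and positions came from RefSeq GRCm38.p6 by Entrez identifier. Ratios within a library were compared by 2-sided exact permutation over the libraries. Unadjusted p and non-overlap of groups are second rules and make no call across genes.

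Alternatives were DESeq2 1.42.0 (the authors' notes name 1.30.0), limma voom (limma 3.58.1), RLE and upper quartile normalization, no filter, at least 10 counts in every library, ribosomal RNA genes and *Lars2* left out, ribosomal RNA share as a covariate, and each replicate left out. A length and GC correction and a slow fibre score as a covariate were added after the data were seen. The fit was tested on simulated data, the outcome of which is not given here. Members, gene lists and markers were chosen with earlier results of these data known. Genes were named by a rule: the catalytic and immunoproteasome subunits, the 5 lowest unadjusted p in core and in 19S, all activators, members without overlap, the largest difference in each direction per part, and of the pathway the 6 lowest p with *Adrm1*, *Sem1*, *Pomp* and *Nfe2l1*. Other members named singly were chosen after their values were seen.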

Additional observations from a re-analysis of the deposited data

How the results depend on the processing

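The 8 members lower at an unadjusted p under 0.05 kept a negative log2 fold change in all 16 alternative fits. Their number was 6 to 8 in the 10 fits on all libraries and 1 to 7 when 1 replicate was left out, with 1 without control D (2.15% of all genes) and 2 without miDrp1KO E (3.91%), near the shares of all genes. Members in either direction numbered 2 to 10 in these replicate fits. Where *Psmb11* is among them, it entered the fit only through its miDrp1KO libraries. Members called after adjustment numbered 1 with DESeq2 (*Psmd2*, log2 fold change -0.69, adjusted p = 0.0381) and 0 in each of the other 15 fits. Leaving *Psmb11* aside, core genes were higher at an unadjusted p under 0.05 in some replicate fits. They were *Psmb10* without control B, *Psmb8* without control C, and *Psmb3* and *Psmb10* without miDrp1KO A. Genes called in all numbered 82 with DESeq2 (of 6962 with an adjusted p), 8 with no filter, 1 with ribosomal RNA share in the model, 4 with slow fibre score in the model and 1 to 7 when 1 replicate was left out. The cause of these differences was not tested. With upper quartile normalization the median of the activators was -0.10, and that setting shifted the median of all genes by 0.09. Leaving out 1 replicate moved the median of the 19S particle between -0.33 and -0.15, that of the core between 0.06 and 0.18 and that of the activators between -0.23 and -0.13. The core median turned to -0.02 with the length and GC correction, was 0.04 with ribosomal RNA share and 0.05 with slow fibre score in the model, and reached 0.20 with upper quartile normalization. When 1 replicate was left out, the pair differences ranged from 0.13 to 0.68 (*Psmb8*), 0.04 to 0.51 (*Psmb9*) and 0.49 to 1.04 (*Psmb10*). No paired analysis was possible because control and miDrp1KO libraries carry different letters. Depth limits the rare genes most: *Psmb8* to *Psmb11*, *Psma8* and *Psme2* rest on few counts, where counting error is large.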
